A study of Mus musculus with 23 samples.

Results

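The proteasome and the enzymes that attach and remove ubiquitin were measured in mouse skin tumours with and without an inducible TGF-beta transgene. Members were the genes whose array probes carried a single symbol starting with Psma, Psmb, Psmc, Psmd, Psme, Psmg, Ube, Uch, Usp or Cul and a digit, with the interferon-induced Usp18 left out. The rule found 86 genes on 97 probes, of 6795 genes with a single-symbol probe and 9596 probes on the array. It used names only and no measured value, but the members were chosen with earlier results of these data known. Values in 8 or more of the papilloma pairs and 5 or more of the carcinoma pairs were required for a test, which 81 of the 86 genes met, and Psmd9, Ube2c, Usp12, Psmg1 and Psmg4 did not.

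All tumours came from adult FVB mice. The labels give an age of 7 to 12 weeks, which cannot be the age at harvest, given the weeks of promotion below. Bigenic mice (K5rTA tetOTGFbeta) carried a doxycycline-responsive TGF-beta transgene together with the K5rTA transactivator, which the keratin 5 promoter drives in basal keratinocytes, and monogenic controls (K5rTA) carried the transactivator alone. Tumours of both genotypes were started with 100 µg of the carcinogen DMBA and promoted with 5 µg of TPA for 20 weeks, and both genotypes ate doxycycline chow at 1 g/kg for 48 h, after a 3 h fast, before harvest. Benign papillomas appeared by weeks 12 to 14 of promotion and squamous cell carcinomas at weeks 25 to 35. Each of 23 arrays carried RNA of 1 bigenic and 1 monogenic tumour of the same stage in Cy3 and Cy5. Only 5 of the 18 tumour pairs, 3 of papillomas and 2 of carcinomas, were measured in both dye orientations. In the others the bigenic tumour was always in Cy3, so a dye effect on a gene cannot be told apart from genotype there. There were 11 papilloma pairs, made of 8 bigenic and 7 monogenic tumours, and 7 carcinoma pairs, made of 5 bigenic and 4 monogenic tumours, so some pairs shared a tumour. The transgene is switched on in keratinocytes, whereas RNA came from whole tumours, in which fewer cells of a type and less RNA per cell cannot be told apart. The labels do not say which tumours came from the same animal, so p-values measure only the spread between tumour pairs. The main fit took pairs that share a tumour as independent, so its standard errors and p-values leave that sharing out.

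The 26S proteasome is the protease that degrades proteins tagged with ubiquitin. Its 20S core, a barrel of alpha and beta subunits, is capped by a 19S regulator whose ATPases (Psmc) unfold substrates and whose non-ATPase subunits (Psmd) bind and deubiquitinate them. Interferon-gamma induces the alternative catalytic subunits Psmb8 (LMP7) and Psmb10 (MECL-1), which replace Psmb5 and Psmb7, and the PA28 alpha and beta activators, but not PA28 gamma (Psme3), and the resulting immunoproteasome favours peptides for MHC class I. Upstream, E2 enzymes (Ube2) pass ubiquitin to ligases, among them the cullin RING ligases (Cul), and Uch and Usp proteases remove it. TGF-beta signalling itself is tuned by this system, since Smurf ligases ubiquitinate its receptors and SMADs.

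Array values were read as log2 ratios of the tumours in a pair, since the log base is not given. They were turned so that a positive value means more RNA in the bigenic tumour if the deposited ratios are Cy5 over Cy3. The numerator is not given in the sources used here, so the results are given as the positive and the negative side, and no level of a gene was available, including levels of the defining markers of the tissue. A fitted value below is the weighted mean log2 ratio of a class of pairs with its standard error (SE) from limma, and adjusted p is Benjamini-Hochberg over the 6413 genes tested. Arrays held values for 6729 to 9573 probes, and papilloma pair 1762D with 257B had the widest spread of ratios. Among keratinocyte markers, 5 of 5 measured (Krt5, Krt6a, Krt10, Krt13 and Lor) had negative fitted values in papillomas, with a median of -0.82. At an unadjusted p of 0.05 limma called all 5 in papillomas, against 5.43% of all genes on the negative side. In carcinomas 2 of the 5 were negative and 3 positive, with a median of 0.62. There limma called 2 each way at the same threshold, against 6.28% negative and 4.32% positive of all genes. At an adjusted p of 0.05 it called 0 of the 5 in either class.

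Promoter windows are printed for members whose ratios moved together and for inducible subunits with an interferon motif. RefSeq windows on GRCm38.p6 from 250 bases before to 20 bases after the transcription start were found for 70 of the 86 members. On both strands they were searched for the core of the interferon-stimulated response element (ISRE core: GAAA, any 2 bases, GAAA), TTCNNNGAA (the gamma-activated site bound by STAT proteins), TGANNNNGC (core of the antioxidant response element, which Nfe2l1 and Nfe2l2 can bind) and CCAAT (bound by NF-Y). Psmb8 (chr17:34197945-34198214, plus strand) and Psme1 (chr14:55578244-55578513, plus strand) are shown as the inducible subunits with a match to either interferon motif. Psma2 (chr13:14612992-14613261, plus strand), Psma4 (chr9:54950609-54950878, plus strand) and Psmd13 (chr7:140882144-140882413, plus strand) are shown because their ratios followed the other constitutive genes closely. Capitals mark motif matches, read 5′ to 3′.
Psmb8: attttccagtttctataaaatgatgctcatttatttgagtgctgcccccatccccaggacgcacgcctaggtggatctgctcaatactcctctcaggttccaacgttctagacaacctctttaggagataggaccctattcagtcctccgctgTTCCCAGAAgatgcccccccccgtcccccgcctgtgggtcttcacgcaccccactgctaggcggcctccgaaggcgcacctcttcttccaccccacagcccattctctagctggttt
Psme1: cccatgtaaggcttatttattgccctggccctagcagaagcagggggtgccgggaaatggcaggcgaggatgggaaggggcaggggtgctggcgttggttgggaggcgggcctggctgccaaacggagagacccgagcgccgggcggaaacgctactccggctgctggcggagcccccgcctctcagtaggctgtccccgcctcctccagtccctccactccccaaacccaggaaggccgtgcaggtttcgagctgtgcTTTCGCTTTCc
Psma2: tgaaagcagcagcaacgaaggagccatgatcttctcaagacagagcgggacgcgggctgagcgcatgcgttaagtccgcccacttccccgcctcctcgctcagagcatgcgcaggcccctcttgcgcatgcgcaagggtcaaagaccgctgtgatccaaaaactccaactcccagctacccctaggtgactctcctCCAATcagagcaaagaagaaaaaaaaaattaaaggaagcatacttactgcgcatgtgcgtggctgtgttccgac
Psma4: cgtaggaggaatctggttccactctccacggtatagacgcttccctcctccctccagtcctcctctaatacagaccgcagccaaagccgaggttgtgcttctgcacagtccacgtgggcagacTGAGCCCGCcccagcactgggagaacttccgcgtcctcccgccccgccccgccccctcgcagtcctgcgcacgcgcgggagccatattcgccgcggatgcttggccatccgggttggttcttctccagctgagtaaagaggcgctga
Psmd13: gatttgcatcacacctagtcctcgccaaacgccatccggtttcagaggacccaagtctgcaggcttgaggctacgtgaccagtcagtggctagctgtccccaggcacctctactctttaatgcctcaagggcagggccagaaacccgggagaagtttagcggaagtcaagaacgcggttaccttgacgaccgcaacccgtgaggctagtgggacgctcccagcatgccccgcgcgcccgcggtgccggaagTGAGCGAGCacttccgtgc
In these windows the capitals are a TTCNNNGAA match at position -97 in Psmb8, the reverse strand of the ISRE core at position 10 in Psme1, CCAAT at -54 in Psma2, and TGANNNNGC at -127 in Psma4 and at 2 in Psmd13, counted from the start site. The 20 windows of constitutive genes belong to 19 genes and include the untested Psmd9, whose window held an ISRE core. That motif was in 15.0% of these 20 windows, against 3.21% of all 32851 windows. It was in 1 of the 5 windows of Psmb8, Psmb10 and the activators. TTCNNNGAA was in 0 of the 20 constitutive windows, in 1 of those 5 and in 7.58% of all windows. TGANNNNGC was in 50% of constitutive windows, 44.9% of 49 windows of ubiquitin enzymes and 37.8% of all. Those 49 windows belong to 41 genes, with the untested Ube2c and Usp12 among them. CCAAT was in 45% of constitutive windows, 14.3% of ubiquitin enzyme windows and 35.4% of all. A match is a description of letters, and no binding was measured.

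The first comparison asked which members differed between bigenic and monogenic papillomas. The genes of the constitutive proteasome lay on the negative side and those of the immunoproteasome and activators on the positive side, but no single member passed the adjusted threshold. The constitutive group held 24 genes by symbol, the 20S and 19S subunits together with Psmd5 and Psmd10, assembly chaperones of the 19S base. Of these 24, 23 had a negative fitted log2 ratio, with a median of -0.19 and a range from -0.36 to 0.08, and the exception was the ubiquitin receptor Psmd4 at 0.08. Psmb8, Psmb10 and the activators Psme1, Psme2b and Psme3 had 5 of 5 positive values, with a median of 0.16. The 49 ubiquitin enzymes were nearer to 0, with 32 negative and a median of -0.045. Over all genes tested, 47.7% had a negative value and the median was 0.010. Without centring of the arrays 20 of the 24 constitutive genes and 25 of the 49 ubiquitin enzymes were negative, and with equal spread on every array 19 and 30. None of the 81 members was called at an adjusted p of 0.05 by limma, which called 0.0624% of all genes (4 genes). At an unadjusted p of 0.05, limma called 8 members and 10.3% of all genes. Of these members 6 were negative and 2 positive, against 5.43% and 4.87% of all genes.

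**Figure D1:**
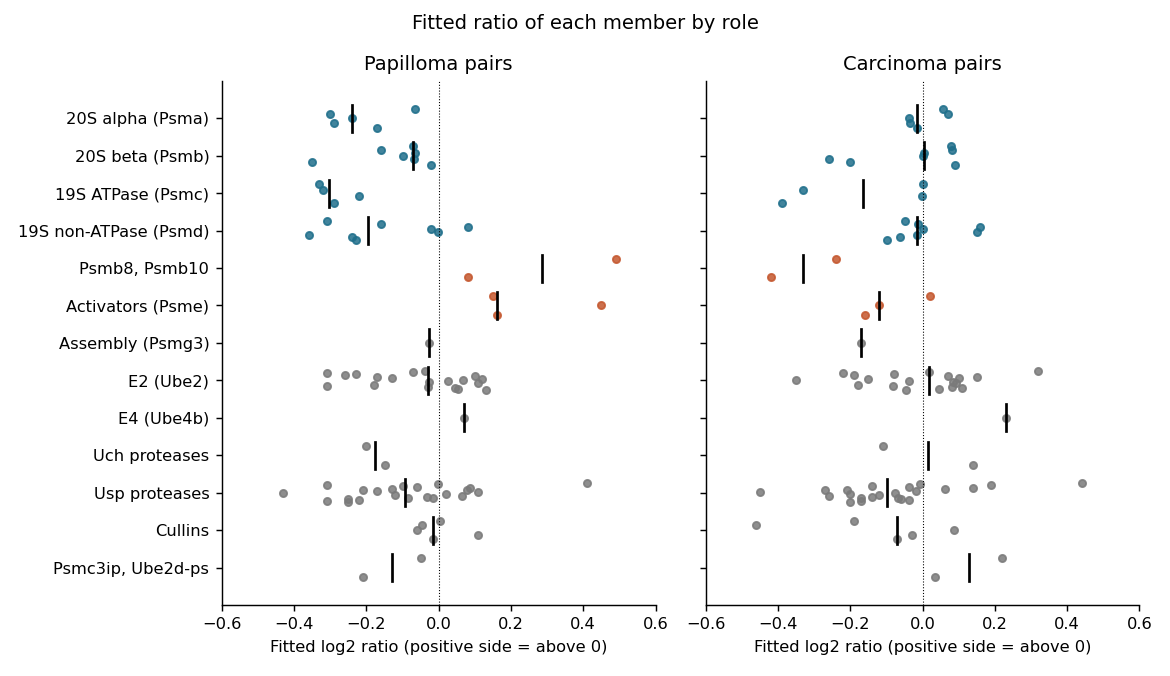
Fitted log2 ratio of each of the 81 tested members (points) by role, in papilloma pairs (left) and carcinoma pairs (right). Black bars are role medians; 23 of the 24 constitutive genes (blue) lie below 0 in papillomas, while the 5 immunoproteasome and activator genes (orange) lie above 0 there.

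Within the 20S core, 12 of 12 tested subunits had negative fitted values in papillomas, with a median of -0.13. Psmb2, a non-catalytic subunit of the beta ring, ran from -1.42 to 0.43 over the 11 papilloma pairs, with a median of -0.45. Only 2 pairs were above 0 for Psmb2, and its fitted value was -0.35 ± 0.136 (SE; limma, adjusted p = 0.391). In the alpha ring, which gates the entry of substrates, Psma6 ran from -1.95 to 0.56 (median -0.36) and was fitted at -0.30 ± 0.183 (adjusted p = 0.608). Psma3 ran from -1.87 to 0.67 (median -0.23), with 4 of 11 pairs positive and a fitted value of -0.29 ± 0.161 (adjusted p = 0.570). These subunits were negative in most pairs but spread over both sides of 0. The catalytic subunits of the constitutive core were closer to 0, Psmb5 (chymotrypsin-like) at -0.067 ± 0.138, Psmb6 (caspase-like) at -0.16 ± 0.148 and Psmb7 (trypsin-like) at -0.071 ± 0.211.

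The 19S regulator had 11 of 12 tested members on the negative side in papillomas, with a median of -0.23. Its ATPases were the most negative role, with 4 of 4 below 0 and a median of -0.31. Psmc5 (Rpt6) ran from -1.56 to 0.31 over the papilloma pairs (median -0.42) and was fitted at -0.33 ± 0.146 (limma, adjusted p = 0.450). Psmc4 (Rpt3) ran from -1.73 to 0.36 (median -0.40) and was fitted at -0.32 ± 0.145 (adjusted p = 0.450). For both ATPases 3 of 11 pairs were positive. Among the non-ATPase subunits, Psmd13 (Rpn9) ran from -1.71 to 0.32 (median -0.40) and was fitted at -0.36 ± 0.172 (adjusted p = 0.481), and Psmd7 (Rpn8) was fitted at -0.31 ± 0.150 (adjusted p = 0.491). The deubiquitinase of the lid, Psmd14 (Rpn11), lay at -0.0029 ± 0.162, with 7 of 11 pairs positive. Of the chaperones, Psmd10 (gankyrin) was fitted at -0.23 ± 0.125, with 2 of 11 pairs positive.

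The negative values of the constitutive genes were concentrated in a few tumour pairs. Their median was -1.57 in papilloma pair 1762D with 257B, where 24 of 24 subunits were negative, -0.82 in the pair of bigenic tumour 1961B and -0.65 in the other pair of 1762D, with 23 of 24 negative in each. In the other 8 papilloma pairs the median ran from -0.24 to 0.30, and it was below 0 in 4 of those. Pair 1762D with 257B held the lowest papilloma value of 23 of the 24 subunits and of 53 of all 81 members. The share over all genes was not counted, so this is not read as a trait of the members. Its array had the widest spread of ratios, with a standard deviation of 1.20 against a median of 0.572 over the arrays. The median over all genes tested was -0.10 in that pair. The keratinocyte markers were also lowest in 1762D with 257B, with a median of -2.43, followed by -1.16 in the 1961B pair. Next came -0.81 in 228A with 2000E, where the constitutive median was highest at 0.30. Macrophage (-1.21), neutrophil (-0.93) and endothelium (-0.69) markers were lowest in 1762D with 257B too. In that pair fibroblast markers were at -2.88, lymphocyte markers at 0.93 and muscle markers at 0.79. The part of these cell types in the result was not tested. Without pair 1762D with 257B the fitted median of the constitutive genes was -0.10 with 17 of 24 negative, and without every array of bigenic tumour 1762D it was -0.046 with 14 of 24. The experiment numbers of the arrays fall into 3 ranges, and the array medians of the constitutive genes averaged -0.37 over 5 papilloma arrays of the first range, -0.018 over 4 of the second and -0.19 over 5 of the third. With the range as a term the median was -0.12 and 17 of 24 were negative.

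**Figure D2:**
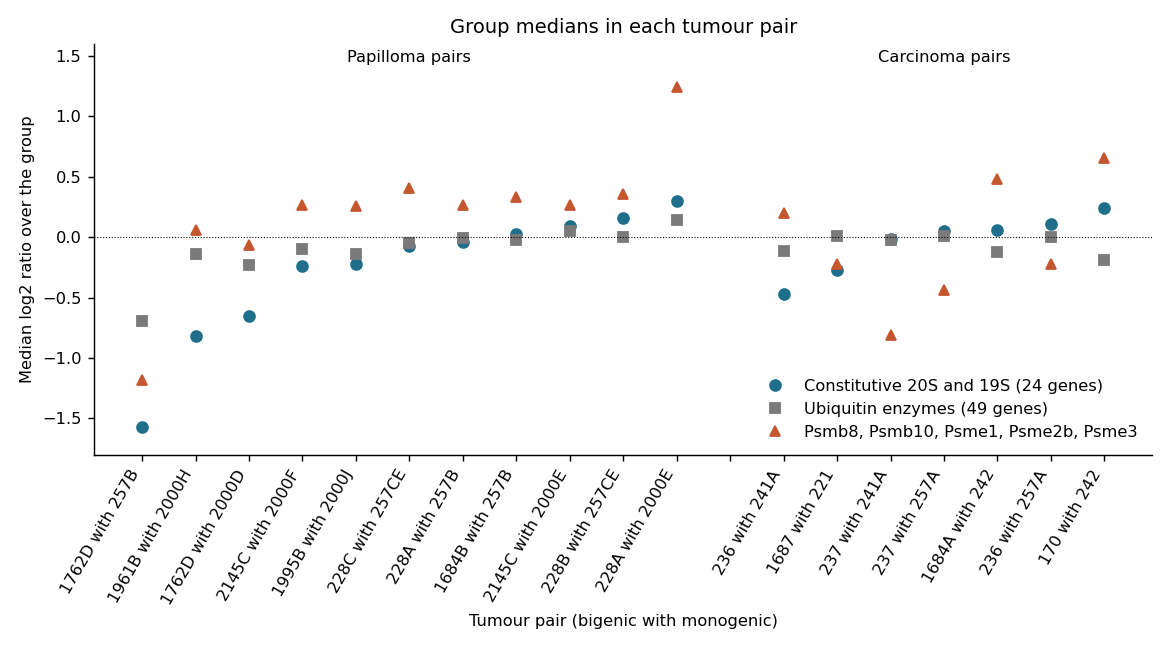
Median log2 ratio of 3 groups of members (markers) in each tumour pair, ordered within papilloma and carcinoma pairs by the constitutive genes. The constitutive median is lowest, at -1.57, in papilloma pair 1762D with 257B, and the median of the 5 immunoproteasome and activator genes lies above the constitutive one in all 11 papilloma pairs and in 4 of 7 carcinoma pairs.

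The immunoproteasome subunits and activators were on the other side in papillomas. Psmb8 ran from -0.18 to 1.91 over the 11 papilloma pairs, with a median of 0.35 and 8 pairs positive. It was fitted at 0.49 ± 0.191 (limma, adjusted p = 0.386). Psme2b, listed as a copy of the PA28 beta gene Psme2 and not separable from it by a cDNA probe, ran from -0.66 to 1.59 (median 0.28) and was positive in 10 of 11 pairs. Its fitted value was 0.45 ± 0.169 (adjusted p = 0.382). These were the only members among the 8 at an unadjusted p of 0.05 that lay on the positive side. The PA28 alpha gene Psme1 was fitted at 0.16 ± 0.161 with 6 of 11 pairs positive, Psme3 (PA28 gamma, a nuclear activator) at 0.15 ± 0.193 with 8 of 11, and Psmb10 at 0.080 ± 0.136 with 7 of 11. The group's median was above 0 in 9 of 11 papilloma pairs, highest at 1.24 in a pair of bigenic tumour 228A and lowest at -1.18 in 1762D with 257B.

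**Figure D3:**
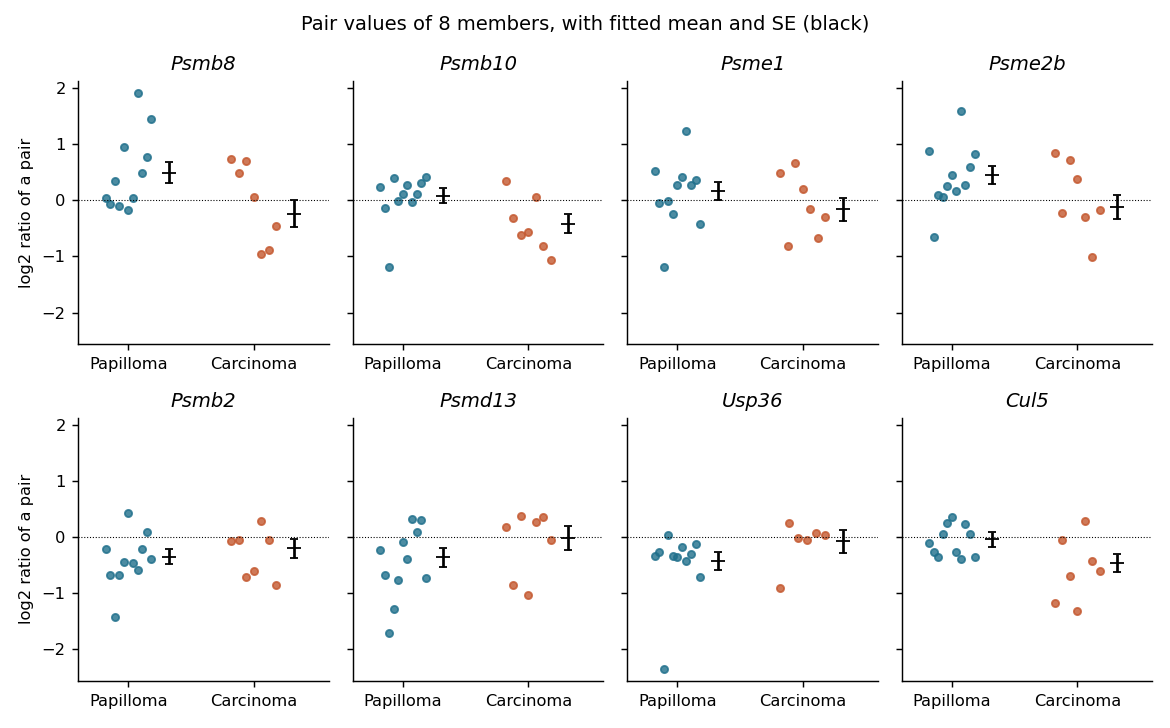
log2 ratio of each papilloma pair (blue points) and carcinoma pair (orange points) for 8 members, with the fitted mean and its SE in black. Psme2b is above 0 in 10 of 11 papilloma pairs, Usp36 is below 0 in 10 of 11, and Cul5 is below 0 in 6 of 7 carcinoma pairs.

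The enzymes of ubiquitin transfer and removal were more mixed in papillomas. Of 22 Usp proteases, 16 were negative, with a median of -0.094. Usp36, a nucleolar deubiquitinase, ran from -2.35 to 0.035 (median -0.33) and was negative in 10 of 11 pairs, with a fitted value of -0.43 ± 0.154 (limma, adjusted p = 0.332). Usp54 ran from -0.96 to 0.25 (median -0.30), was negative in 10 of 11 pairs and was fitted at -0.31 ± 0.132 (adjusted p = 0.427). With Psme2b, these were the members with at most 1 papilloma pair on the other side, 2 negative and 1 positive of 81, and 2.26% and 2.46% of all genes met the same condition. No member lay on 1 side in every papilloma pair, as 0.405% of all genes did on the negative and 0.468% on the positive side. At the other end Usp9x, a deubiquitinase of SMAD4 among other substrates, was fitted at 0.41 ± 0.263, with a single pair at 3.75 and a median of 0.065. The 19 E2 enzymes had 11 negative values and a median of -0.030. Among them the widely used E2 Ube2d3 was fitted at -0.31 ± 0.181 and Ube2n, which builds lysine-63 chains, at -0.17 ± 0.102 (adjusted p = 0.580 and 0.604). The cullins Cul1, Cul2, Cul3, Cul5 and Cul7 lay between -0.059 and 0.11. Uchl5, which sits on the 19S regulator, and Uchl1 were at -0.20 ± 0.133 and -0.15 ± 0.175. The assembly chaperone Psmg3 was at -0.027 ± 0.136 and the ligase Ube4b at 0.071 ± 0.111.

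The second comparison asked the same of carcinomas. The constitutive proteasome was balanced around 0, and the members with the largest ratios were single ubiquitin enzymes. Of the 5 immunoproteasome and activator genes 4 had negative fitted values, but their unweighted pair means lay near 0 except for Psmb10. No member passed the adjusted threshold of limma, which called 0.078% of all genes (5 genes). At an unadjusted p of 0.05 limma called 4 members, Cul5, Usp37, Psmb10 and Ube2j1, and 10.6% of all genes. These 4 members were negative and 0 were positive, against 6.28% and 4.32% of all genes. Of the 24 constitutive genes 13 were negative, with a median of -0.0080, and of the 49 ubiquitin enzymes 32 were negative, with a median of -0.059. Over all genes 51.4% were negative and the median was -0.0082. Without centring 9 of the 24 constitutive genes were negative. Constitutive pair medians ran from -0.47 in 236 with 241A to 0.24 in 170 with 242. With the experiment-number range as a term, which rests on 1 carcinoma array outside the second range, 24 of 24 constitutive genes were negative in carcinomas with a median of -0.26.

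Among the carcinoma values, Cul5, the scaffold of ligases that use SOCS-box receptors, ran from -1.31 to 0.29 over 7 pairs (median -0.61). It was negative in 6 pairs and fitted at -0.46 ± 0.163 (limma, adjusted p = 0.294). Usp37, a deubiquitinase with a role in the cell cycle, ran from -1.29 to 0.25 (median -0.61), with 2 of 7 pairs positive and a fitted value of -0.45 ± 0.171 (adjusted p = 0.321). The membrane-bound E2 Ube2j1, which serves degradation from the endoplasmic reticulum, ran from -1.29 to 0.013 over 6 pairs (median -0.29) and was fitted at -0.35 ± 0.153 (adjusted p = 0.415). These 3 enzymes passed the threshold when only arrays with the bigenic tumour in Cy3 were used, with adjusted p of 0.0412 for Cul5, 0.0398 for Usp37 and 0.0342 for Ube2j1, and in that fit 209 of all genes passed in carcinomas. Usp5, which takes apart free ubiquitin chains, was the single member on 1 side in every carcinoma pair, from -0.50 to -0.018, with a fitted value of -0.14 ± 0.152. Of all genes 1.95% were negative and 1.51% positive in every carcinoma pair. Counting members with at most 1 pair on the other side, 11 of 81 were negative and 2 positive, against 9.81% and 9.98% of all genes. On the positive side Ube2z, which takes ubiquitin from Uba6, ran from -0.42 to 1.26 (median 0.31) and was fitted at 0.32 ± 0.156 (adjusted p = 0.486), and Usp9x was fitted at 0.44 ± 0.317.

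Among the constitutive genes in carcinomas, the ATPases Psmc1 (Rpt2) and Psmc4 had the most negative values. Psmc1 ran from -1.46 to 0.085 over 7 pairs (median -0.26) and was fitted at -0.39 ± 0.217 (limma, adjusted p = 0.545). Psmc4 ran from -0.77 to 0.17 (median -0.53) and was fitted at -0.33 ± 0.181 (adjusted p = 0.535). Each was positive in 1 of 7 pairs, whereas Psmc3 and Psmc5 lay at -0.0023 and 0.00072. In the beta ring Psmb3 was at -0.26 ± 0.156 and Psmb2 at -0.20 ± 0.170, and the other 5 tested beta subunits lay between 0.0019 and 0.089. Psmd4 at 0.16 ± 0.212 and Psmd14 at 0.15 ± 0.202 were at the positive end of the 19S regulator.

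Psmb10 was the inducible subunit with the most negative value in carcinomas. It ran from -1.07 to 0.34 (median -0.57), with 2 of 7 pairs positive and a fitted value of -0.42 ± 0.169 (limma, adjusted p = 0.365). Psmb8 ran from -0.96 to 0.73 (median 0.058), with 4 of 7 pairs positive and a fitted value of -0.24 ± 0.238 (adjusted p = 0.795). Psme1 was fitted at -0.16 ± 0.201, Psme2b at -0.12 ± 0.211 and Psme3 at 0.019 ± 0.272. The group's pair medians split the carcinoma pairs, with 0.66 in 170 with 242, 0.48 in 1684A with 242 and 0.20 in 236 with 241A on the positive side. They ran from -0.22 down to -0.81 in the other 4, namely 1687 with 221, 236 with 257A and both pairs of 237. The fit gives more weight to the dye-swapped pairs 236 with 257A and 237 with 241A. Unweighted pair means were -0.43 for Psmb10, -0.044 for Psmb8, -0.087 for Psme1, 0.031 for Psme2b and 0.042 for Psme3. On arrays with the bigenic tumour in Cy3 alone, the carcinoma values of Psmb8 and Psme2b were 0.091 and 0.15, on the other side of 0 from the full fit.

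The third comparison, carcinoma minus papilloma, asked whether the ratio of a member differed between tumour stages. The constitutive and the immunoproteasome and activator genes lay on opposite sides, again with no member past the threshold. The constitutive genes had 21 of 24 positive differences with a median of 0.15, and the 5 immunoproteasome and activator genes had 5 of 5 negative differences with a median of -0.50. Over all genes 52.0% of differences were negative and the median was -0.013. limma called 0 members and 0.296% of all genes (19 genes) at an adjusted p of 0.05, and 6 members and 7.8% of all genes at an unadjusted p of 0.05. Of these 6, 5 were negative and 1 positive, against 4.63% and 3.17% of all genes. Psmb8 (-0.73 ± 0.305, adjusted p = 0.535), Psmb10 (-0.50 ± 0.217, adjusted p = 0.573), Psme2b (-0.57 ± 0.271, adjusted p = 0.637), Usp37 (-0.56 ± 0.219, adjusted p = 0.494) and Ube2j1 (-0.42 ± 0.192, adjusted p = 0.622) made up the negative ones. Usp54 was the positive one at 0.50 ± 0.210 (adjusted p = 0.535). The largest constitutive differences were 0.37 ± 0.292 for Psma6, 0.34 ± 0.274 for Psmd13 and 0.33 ± 0.233 for Psmc5, each with an SE of similar size. Without pair 1762D with 257B the constitutive median difference was 0.051, and with the experiment-number range as a term it was -0.17 with 19 of 24 negative.

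Proteasome subunits varied together from pair to pair, and correlations among the ubiquitin enzymes were nearer to 0. Across the 18 pairs, which share tumours and array effects, the mean Pearson correlation between constitutive genes was 0.53, with 98.2% of gene pairs above 0, and it was 0.54 within the 20S core and 0.52 within the 19S regulator. It was 0.22 among E2 enzymes, 0.044 among Usp proteases and 0.0065 over all genes tested. The subunits closest to the median of the others were Psma2 (r = 0.93), Psmc3 (0.91), Psma4 (0.89) and Psmd13 (0.88), and the farthest was Psmb3 (0.19). Without pair 1762D with 257B the mean correlation was 0.37 in the 20S core, 0.25 in the 19S regulator, 0.14 among E2 enzymes and 0.0066 over all genes, and Psma2 kept the highest value at 0.92 while Psmd14 had 0.0083. Over the 18 pairs Psmb8 followed Psme2b (r = 0.78) more closely than the median of the constitutive genes (0.15). Its correlation was lower with Psmb10 (0.30) and Psme1 (0.36), and Psmb10 had 0.48 with Psme1 and 0.41 with Psme2b. Psme1 was correlated with both Psme2b (0.68) and the constitutive median (0.60). Without pair 1762D with 257B these 2 values of Psme1 were 0.76 and 0.38.

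The genes next to the immunoproteasome in antigen presentation were set beside it. Of 10 genes listed, Tap1 and Tap2 (the peptide transporter), B2m (the light chain of MHC class I), Irf1 (an interferon-induced transcription factor) and Erap1 (a peptide-trimming protease) were tested. In papillomas 5 of 5 were positive with a median of 0.30, in carcinomas 4 of 5 were negative with a median of -0.34, and the differences were 5 of 5 negative with a median of -0.64. Irf1 passed the threshold for the difference at -1.06 ± 0.194 (limma, adjusted p = 0.0125), from 0.51 ± 0.122 in papillomas, with 10 of 11 pairs positive, to -0.55 ± 0.152 in carcinomas, with 6 of 7 pairs negative (adjusted p = 0.106 and 0.159). The call for Irf1 was lost with the experiment-number range as a term (adjusted p = 0.0884), without the first range (0.142), and without bigenic tumour 236 or 237 or monogenic tumour 241A, 257A or 257B (from 0.0547 to 0.138). Psmb8 was correlated over the 18 pairs with Tap1 (r = 0.81), which is its neighbour in the MHC, with B2m (0.65) and with Irf1 (0.46). Of the cell type markers, 6 of 6 measured lymphocyte genes were positive in papillomas (median 0.15) and 5 of 6 in carcinomas (median 0.18), and 3 of 4 macrophage genes were positive in papillomas (median 0.13) and 4 of 4 in carcinomas (median 0.71). Of 4 neutrophil genes on the array, 3 were tested (S100a8, S100a9 and Ngp). Of these, 2 were negative in papillomas (median -0.0055) and 3 in carcinomas (median -0.80), and 3 of 3 differences were negative (median -0.80). Whether these cells had a part in the values of the immunoproteasome and activator genes was not tested.

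Other genes of the pathway outside the naming rule were mixed. Of 90 listed, 46 were tested and 0 passed in any comparison. In papillomas 24 of 46 were negative (median -0.014), in carcinomas 29 (median -0.070), and limma called 4 in papillomas, 3 in carcinomas and 4 for the difference at an unadjusted p of 0.05, against 10.3%, 10.6% and 7.8% of all genes. The ligase Cblb, which restrains receptor signalling in lymphocytes, was at 0.43 ± 0.117 in papillomas and -0.33 ± 0.146 in carcinomas, with a difference of -0.76 ± 0.187 (limma, adjusted p = 0.0846). Trim21, an interferon-induced ligase that binds antibodies, was at 0.38 ± 0.125 in papillomas and -0.11 ± 0.156 in carcinomas. On the negative side in papillomas were the COP9 signalosome subunit Cops8, which acts on cullins, at -0.40 ± 0.163, and the shuttle protein Rad23b at -0.38 ± 0.153. In carcinomas Cops7a was at -0.36 ± 0.134 and the F-box protein Btrc at 0.42 ± 0.193. Smurf2, the ligase of TGF-beta receptors, was fitted with a difference of 0.37 ± 0.147, from -0.14 in papillomas to 0.23 in carcinomas (adjusted p = 0.509).

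Repeat arrays with exchanged dyes show how far single values can be read. In the 5 pairs measured in both orientations, the correlation of the members between orientations, across genes, ran from -0.10 to 0.15. That of all genes tested ran from -0.0049 to 0.36. The share of members with the same sign was 37.5% to 57.0%, and that of all genes tested 46.2% to 55.6%. In papillomas Psmb8 was at 0.031 and 0.051 in 1684B with 257B, 0.34 and 0.62 in 228A with 257B, and 0.72 and 0.81 in 228B with 257CE, positive in both orientations of all 3 swapped pairs. Psme2b and Psme1 were positive in both orientations of these pairs as well, with 1.5 and 0.23, 0.20 and 0.36, and 0.58 and 0.60 for Psme2b. Psme3 was negative in both orientations of 228A with 257B (-0.67 and -0.10) and of 228B with 257CE (-0.78 and -0.18), and Psmb10 changed sign in both (-0.062 and 0.31, and -0.26 and 0.86). In carcinomas Psmb8 was at -0.63 and -1.29 in 236 with 257A and at -0.28 and -1.51 in 237 with 241A, and Psme2b at 0.54 and -1.13 and at -1.0 and -1.02. Usp37 had opposite signs in both swapped carcinoma pairs, at -0.073 and 0.56 and at -1.01 and 0.30, and so had Ube2j1, at -0.41 and 0.34 and at -0.73 and 0.59. Cul5 kept its sign within each, at 0.070 and 0.51 in 236 with 257A and at -0.59 and -0.27 in 237 with 241A.

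**Figure D4:**
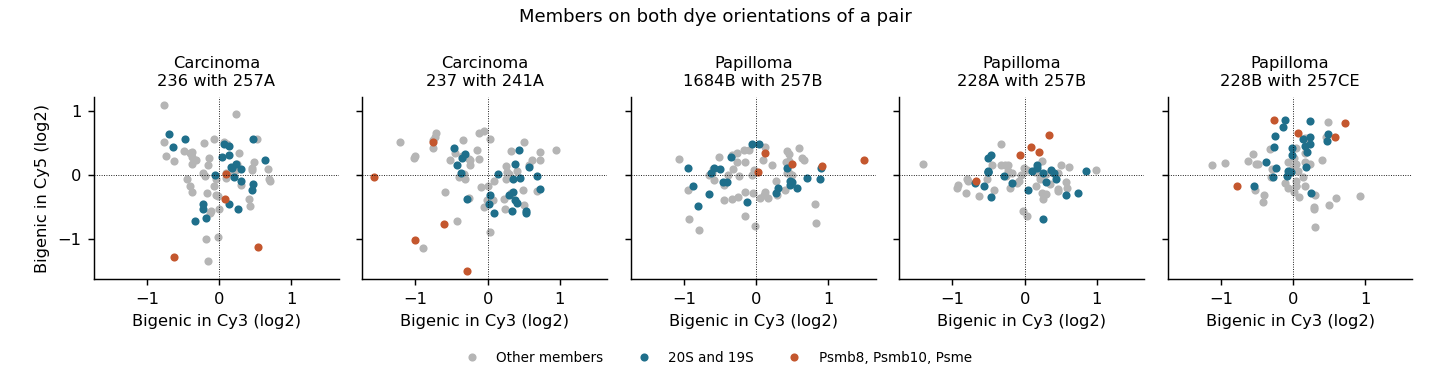
log2 ratio of each member with the bigenic tumour in Cy3 (horizontal axis) and in Cy5 (vertical axis) in the 5 pairs measured in both orientations, turned to the same sign. Points of most members scatter around 0 in all directions, and the correlation ran from -0.10 to 0.15.

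Probes of the same member often disagreed. For the 10 members with several probes, the correlation between probes over the arrays ran from -0.58 (Usp46) to 0.46 (Ube2h), with a median of 0.13, and the probes lay on the same side in papillomas for 3 of the 10. The 20S subunit Psmb1 had probe means of -0.21 and 0.092 in papillomas. Of the symbols caught by the rule that are no proteasome or conjugation enzyme, Psmc3ip, a meiotic recombination protein, was at -0.21 ± 0.136 in papillomas and the pseudogene Ube2d-ps at -0.048 ± 0.195. The 5 untested members were measured in 5 to 7 papilloma pairs, with pair medians from -0.69 (Ube2c, an E2 of mitosis) to -0.055 (Psmg4).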

How the data were processed

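Per the labels' protocols, tumour RNA was purified on a column after TRIzol and labelled with Cy3 or Cy5 by aminoallyl coupling. The authors deposited 1 signed value per probe and array, read here as log2 ratios. For the log base, numerator and normalization nothing was given in the sources used. Array medians as deposited ran from -0.34 to 0.014, and 0.24% to 29.9% of an array's values were missing.

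Ratios were turned by dye label and centred on each array's median. Of 9596 probes, 7486 had 1 symbol in the platform annotation, and probes of a gene were averaged. Dye-swapped arrays were merged into 1 pair value. limma 3.58.1 in R 4.3.3 fitted 1 mean per class with the number of arrays as weight, after tests on simulated data, and p-values were adjusted by the Benjamini-Hochberg method with a threshold of 0.05. Named are, per role, the members of smallest p, the listed immunoproteasome and PA28 genes, members on 1 side in every pair and, of other pathway genes, the 3 of smallest p per comparison. Other genes are named to describe their role and were chosen after their values were seen. The members and lists were chosen with earlier results of these data known. Alternatives covered dye, scaling, filters, weights, shared tumours, experiment-number range and left-out tumours. The number in an array's title did not pair papilloma with carcinoma arrays, with correlations from -0.32 to 0.156 over 9 numbers. The number of arrays limits the precision.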

Additional observations from a re-analysis of the deposited data

Results flagged for a closer look

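Among 45 groups of 4 to 10 pairs examined, a single value stood apart from the rest of its group, and chance marks about 1 in 20 groups. Usp36, the nucleolar deubiquitinase with the most negative papilloma value, was at -0.91 in carcinoma pair 1684A with 242, against -0.051 in the nearest of the other 5 of 6 measured pairs. The gap was 0.74 of the whole range. Irf1, the interferon-induced transcription factor set beside the immunoproteasome, had a ratio that differed between the tumour stages by limma's test of the difference itself, at -1.06 ± 0.194 (adjusted p = 0.0125), with 10 of 11 papilloma pairs positive and 6 of 7 carcinoma pairs negative.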

How the results depend on the processing

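No member was called when any tumour was left out, and the ranges over left-out tumours were -0.13 to -0.0013 for the papilloma median of the members and -0.067 to -0.024 for the carcinoma median. At an adjusted p of 0.05 the count was 0 under each other setting but 1. With only arrays that carried the bigenic tumour in Cy3, 3 of 81 members and 209 of 6413 genes passed in carcinomas. In the main fit, an unadjusted p of 0.05 gave 8 members in papillomas, 4 in carcinomas and 6 for the difference. The shares over all genes were 10.3%, 10.6% and 7.8%. With the experiment-number range as a fixed term the carcinoma median of the members was -0.13. A replicate block for the number in the array title, which does not pair the arrays, gave 0 members and 5 of all genes for the difference (19 without it), and 1 of 9 numbers correlated best with itself. With the replicate block the difference of Irf1 was -1.17 (adjusted p = 0.189). The difference of Cblb passed limma's threshold with equal spread (adjusted p = 0.0403) and with quantile normalization (0.0376). In carcinomas, Cops7a (0.0467) and Irf1 (0.0292) passed with only arrays that carried the bigenic tumour in Cy3. In papillomas, Irf1 passed with a dye term (0.0249), equal spread (0.0174) and quantile normalization (0.0157). With a dye term, Ube4b was at -0.049, Psmg3 at 0.15 and Cul2 at -0.012 in papillomas. With the bigenic tumour in Cy3 only, Uchl5 was at 0.0045, Psme2b at 0.15, Psmb8 at 0.091 and Psmc3ip at -0.033 in carcinomas and Psmb10 was at -0.035 and Ube2d-ps at 0.054 in papillomas. Without centring, Psmg3 was at 0.015 in papillomas. With equal spread, Psmg3 was at 0.040 in papillomas. With quantile normalization, Psmg3 was at 0.044 in papillomas. With unweighted pairs, Psme2b was at 0.031 and Psmc3ip at -0.0074 in carcinomas and Ube2d-ps was at 0.12 in papillomas. With the range term, Psmd4 was at -0.12, Psmd14 at -0.043, Psma6 at -0.27, Psma7 at -0.21, Ube4b at -0.15 and Psmc3ip at -0.050 in carcinomas and Psmd13 was at -0.11, Psma6 at -0.11, Psmb6 at -0.24, Ube4b at -0.36 and Psmg3 at 0.046 for the difference. Without the first range, Cul3 was at 0.0043 in papillomas. Without pair 1762D with 257B, Psmg3 was at 0.0030 in papillomas. Over left-out tumours, Ube2d-ps ran from -0.15 to 0.13, Psmb6 from -0.28 to 0.0092, Psmg3 from -0.10 to 0.058, Cul3 from -0.15 to 0.033, Ube4b from -0.019 to 0.15 and Cul2 from -0.011 to 0.21 in papillomas. Over left-out tumours, Psma6 ran from -0.11 to 0.26, Psma7 from -0.15 to 0.23, Psmc3ip from -0.11 to 0.19, Psme1 from -0.37 to 0.038, Psme2b from -0.38 to 0.19, Psmb8 from -0.51 to 0.034, Uchl5 from -0.17 to 0.035 and Uchl1 from -0.0021 to 0.34 in carcinomas. Over left-out tumours, Psmg3 ran from -0.33 to 0.024 for the difference. The cause of these shifts was not tested. Missing spots limit depth, and no signal over background was used here.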
